A study of Mus musculus with 48 samples.

Results

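GABAergic neuron and GABA receptor genes were followed through the brains of 5xFAD and wild-type mice fed control chow or the CSF1R inhibitor PLX5622. The set holds 27 genes of 16014 in the deposited expression table, taken by a rule on names that covers GABA synthesis, transport, reception and interneuron identity and uses no measured value. It has 4 genes of GABA synthesis, vesicle loading and uptake, 9 GABA-A receptor subunits, 2 GABA-B receptor subunits, 2 proteins of the inhibitory postsynapse, 7 interneuron peptides, calcium-binding proteins and matrix proteins, and 3 interneuron transcription factors. Every one of the 27 had a row in the table and passed the filter on low values (RPKM, reads scaled to transcript length and library size, of at least 0.2 in at least 4 libraries).

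The 48 libraries are 4 each of Wild-type mice on control chow, PLX5622 (wild-type mice on PLX5622), 5xFAD mice on control chow and 5xFAD + PLX5622, from each of cortex, hippocampus and thalamus. All mice were on the C57BL/6 background and were 7 months old. PLX5622, which kills microglia by blocking the receptor they need to survive, was mixed into the chow at 1200 ppm, starting when the mice were 1.5 months old. The 5xFAD line carries human transgenes, APP among them, with mutations of familial Alzheimer's disease, driven in neurons by the Thy1 promoter, and the counts do not tell transgene reads apart from mouse ones. The tissue labelled thalamus is described in the dissection notes as thalamus together with striatum. The labels do not say whether the 3 regions of a mouse are among the libraries, so p-values measure the spread between these libraries.

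GABA is the main inhibitory transmitter of the brain. It is made from glutamate by the decarboxylases Gad1 and Gad2, loaded into vesicles by Slc32a1 (VGAT) and cleared in part by the astrocytic transporter Slc6a11 (GAT-3). It opens GABA-A receptors, chloride channels built from several subunits, and activates GABA-B receptors, which signal through G proteins. In cortex and hippocampus the neurons that release it are mostly local interneurons, told apart by products such as Pvalb, Sst, Vip and Npy, whereas striatal projection neurons and the cells of the thalamic reticular nucleus are GABAergic themselves. Several of the markers are shared with other cells: Cck is also made by many excitatory pyramidal neurons of cortex and hippocampus, and Calb2 by groups of excitatory thalamic neurons.

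The libraries held 6.19 M to 16.02 M reads (median 10.94 M), recovered from the steps between low values. The summed RPKM of 10 microglial genes was 135 to 403 without PLX5622 and 10.3 to 144 with it. Genes of neighbouring tissue were read in each region: 10 genes of striatal projection neurons, which are GABAergic, summed to 109 to 698 RPKM in cortex, 65.1 to 1215 in hippocampus and 87.7 to 747 in thalamus, and 8 genes of thalamic relay neurons to 108 to 423 in thalamus and 41.0 to 208 in hippocampus. In 5 libraries, AT-rich transcripts read low against GC-rich transcripts. The measure is a GC index, the log2 deviation from the region's mean of the 1300 tested genes lowest in transcript GC content minus that of the 1300 highest, members left out, and it was -1.033 in PLX5622 hippocampus replicate 1, -0.792 in Wild-type thalamus replicate 4, -0.605 and -1.01 in PLX5622 thalamus replicates 1 and 4, and -0.64 in 5xFAD thalamus replicate 2. In bulk tissue, fewer cells of a type and less RNA per cell cannot be told apart.

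In wild-type mice the set was led by peptides, GABA-B receptors and Gad1. In cortex, Cck (198 ± 24.9 RPKM, mean ± SD, n = 4), the GABA-B subunit Gabbr1 (156 ± 2.32), Sst (150 ± 19.0) and Gad1 (118 ± 14.8) stood highest. The libraries of Cck were all above those of Gabbr1, while Gabbr1 overlapped with Sst and Sst with Gad1. Hippocampus had the same 4 genes at the top, with Cck at 208 ± 18.9, Sst at 157 ± 19.6, Gabbr1 at 156 ± 11.9 and Gad1 at 97.1 ± 14.2, and here Sst and Gabbr1 overlapped and the other neighbours did not. In thalamus Gabbr1 led at 181 ± 11, followed by Slc6a11 (134 ± 48), Gad1 (112 ± 15.1), Sst (111 ± 46.5) and Cck (106 ± 8.31), and each overlapped with the next. The transcription factors Lhx6, Dlx1 and Dlx6, which specify interneurons during development, read 2.53 to 7.01 RPKM on average in the 3 regions. Among the 9 GABA-A subunits of the set, Gabrb2 was highest in each region (76.4, 59.4 and 37.8 RPKM in cortex, hippocampus and thalamus) and Gabrg1 lowest (7.43, 4.5 and 6.76).

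**Figure D1:**
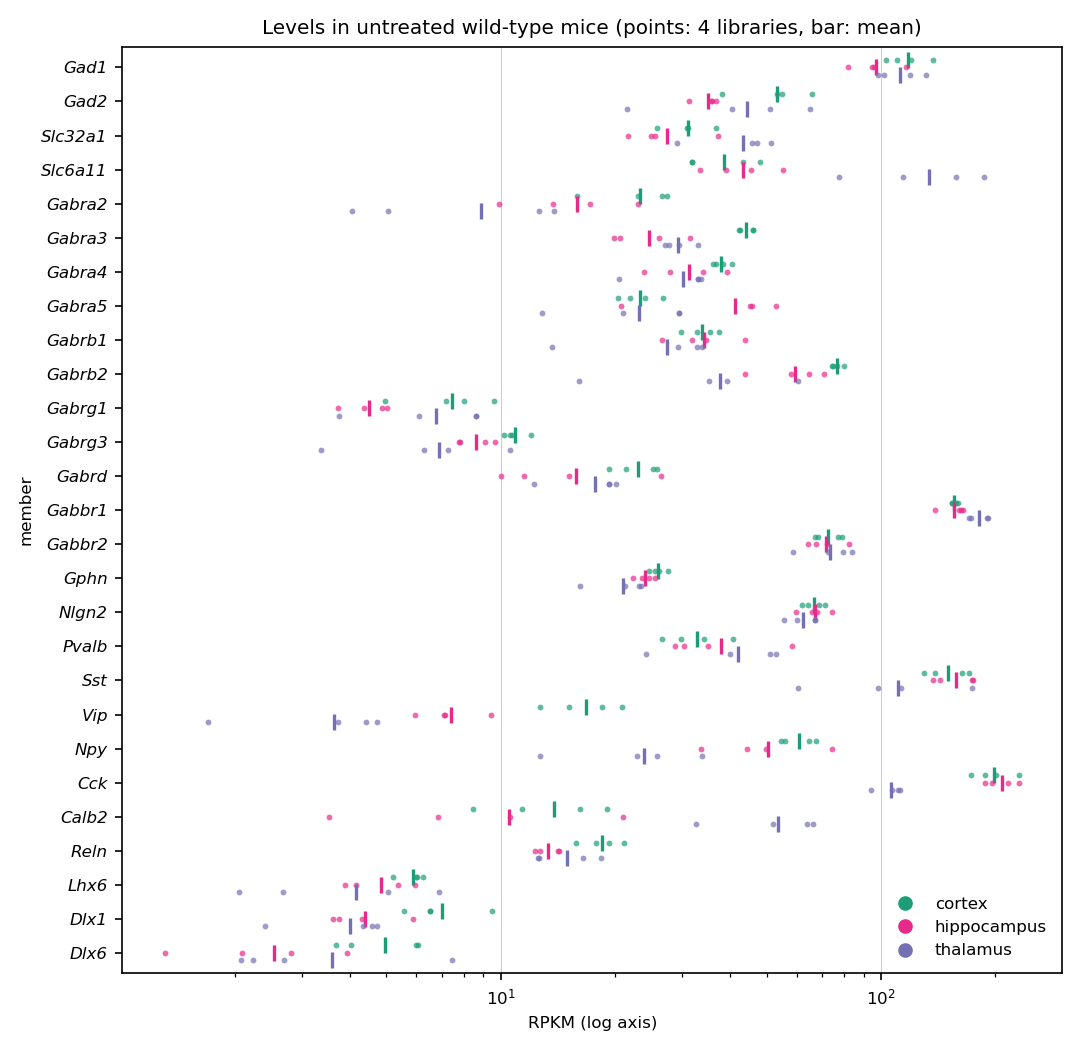
Level of each of the 27 genes in wild-type cortex, hippocampus and thalamus, as RPKM on a log axis, with a point for each of the 4 libraries of a region. Slc6a11 and Calb2 sit highest in thalamus, and Vip, Npy and Cck lowest there.

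Promoters of 3 peptide genes that were called between regions or diets are shown with that of Sst, which was not called, as 150 bases before the transcript start from RefSeq on GRCm38.p6. Windows were found for 24 of the 27 members. Capitals mark TGACGT, the core of the cyclic AMP response element, and TATAAA, searched on both strands. In Sst the core is found on both strands, overlapping as TGACGTCA.
Cck: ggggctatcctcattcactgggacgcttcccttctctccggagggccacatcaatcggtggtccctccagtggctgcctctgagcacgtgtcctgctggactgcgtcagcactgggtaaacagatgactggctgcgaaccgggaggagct
Npy: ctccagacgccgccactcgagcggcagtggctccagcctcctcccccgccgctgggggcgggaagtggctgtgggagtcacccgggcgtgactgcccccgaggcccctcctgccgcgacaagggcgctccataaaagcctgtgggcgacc
Vip: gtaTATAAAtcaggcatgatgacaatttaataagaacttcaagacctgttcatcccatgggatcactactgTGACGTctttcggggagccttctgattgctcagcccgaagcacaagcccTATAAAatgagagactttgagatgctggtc
Sst: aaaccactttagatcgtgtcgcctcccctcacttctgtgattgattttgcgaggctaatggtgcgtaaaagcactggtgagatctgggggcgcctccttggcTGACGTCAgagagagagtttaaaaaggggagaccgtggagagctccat
The windows lie at chr9:121495695-121495844 on the minus strand for Cck, chr6:49822560-49822709 on the plus strand for Npy, chr10:5639068-5639217 on the plus strand for Vip and chr16:23890845-23890994 on the minus strand for Sst. TGACGT was found in 2 members, Sst and Vip, and in 5.15% of all 32851 windows of this length. TATAAA was found in 4 members, Gad1, Gabra3, Gabrb2 and Vip, and in 7.57% of all windows. The windows of Cck and Npy held neither.

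In wild type, Slc6a11 and Calb2 were called higher in thalamus than in both other regions and Slc32a1 than in hippocampus, and Npy, Cck, Vip and Gabrb2 were called lower in thalamus than in 1 or both of the other regions. Against thalamus, 6 of 27 members were called in cortex (22.2%, 4 higher and 2 lower), where 18.2% of all 15975 genes were called at an adjusted p of 0.05. Against thalamus, 5 members were called in hippocampus (18.5%, 2 higher and 3 lower), with a background of 11.3%. Between hippocampus and cortex, 1 member was called, Gabra3, lower in hippocampus (3.70%), with a background of 4.31%. Fold changes are on a scale of log2(RPKM + 0.1). Their median over the members was 0.37 for cortex against thalamus, 0.06 for hippocampus against thalamus and -0.31 for hippocampus against cortex, and that of all genes lay between -0.01 and 0.02. The count for cortex against thalamus was 10 without Wild-type thalamus replicate 1, and that for hippocampus against thalamus was 3 without Wild-type thalamus replicate 3.

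Slc6a11, the GABA transporter of astrocytes, read 77.3, 114, 187 and 157 RPKM in wild-type thalamus, 31.8, 48, 43.4 and 31.8 in cortex and 55.1, 33.4, 39.1 and 45.5 in hippocampus. Each thalamic library was above each library of the other regions. It was lower in cortex (log2 fold change -1.73, SE 0.241, limma adjusted p = 4.74e-06) and in hippocampus (-1.57, adjusted p = 2.61e-05). Calb2, which encodes calretinin, read 32.7, 52.0, 63.7 and 66.2 in thalamus, 8.47, 19.0, 16.2 and 11.4 in cortex and 20.9, 3.54, 6.84 and 10.6 in hippocampus, again without overlap. Its log2 fold change against thalamus was -1.97 in cortex (adjusted p = 0.00752) and -2.58 in hippocampus (adjusted p = 0.000373). Slc32a1, the vesicular GABA transporter, read 45.9, 29.1, 47.3 and 51.3 in thalamus and 25.4, 37.3, 24.8 and 21.6 in hippocampus (-0.67, adjusted p = 0.0314). Its groups overlapped through Wild-type thalamus replicate 2 and hippocampus replicate 2, and the call was lost without any of hippocampus replicates 1, 3 and 4 or thalamus replicates 1, 3 and 4 (adjusted p 0.0705 to 0.121), with the GC index as a covariate (adjusted p = 0.0534) and without the 5 libraries of low index (adjusted p = 0.103).

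The peptides ran the other way. Npy read 67.6, 55.9, 64.6 and 54.7 RPKM in wild-type cortex, 33.6, 74.1, 49.9 and 44.4 in hippocampus and 33.8, 22.8, 12.7 and 25.8 in thalamus, with no overlap between cortex and thalamus. It was higher than in thalamus in cortex (log2 fold change 1.43, limma adjusted p = 0.000534) and in hippocampus (1.11, adjusted p = 0.0082). The hippocampal call was lost without hippocampus replicate 2 (0.91, adjusted p = 0.0506) or thalamus replicate 3 (0.84, adjusted p = 0.0699). Cck read 231, 172, 188 and 201 in cortex, 216, 230, 196 and 188 in hippocampus and 111, 112, 93.9 and 107 in thalamus, so that its lowest cortical or hippocampal library was above every thalamic library. Its log2 fold change was 0.89 in cortex (adjusted p = 0.000285) and 0.97 in hippocampus (adjusted p = 9.24e-05). Vip, the peptide of a class of interneurons that inhibit other interneurons, read 20.8, 12.7, 15.1 and 18.4 in cortex against 4.73, 4.43, 1.70 and 3.74 in thalamus, without overlap (2.24, adjusted p = 0.00129).

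Among the receptor subunits, Gabrb2, a beta subunit that helps form the GABA site, read 74.4, 76.4, 74.7 and 80.1 RPKM in wild-type cortex and 39.3, 60.6, 35.2 and 16.1 in thalamus (log2 fold change 1.16, limma adjusted p = 0.0432). The lowest thalamic value was in the library with a GC index of -0.792, without which the difference was 0.80 (adjusted p = 0.237). The call was also lost without thalamus replicate 3 or any cortical replicate (adjusted p 0.0737 to 0.0875). Gabra3, an alpha subunit, read 42.3, 42.6, 46.0 and 46.0 in cortex and 19.9, 31.4, 20.6 and 26.0 in hippocampus (-0.88, adjusted p = 0.0412), 2 groups without overlap. Its call was lost without any of 7 of the 8 libraries, hippocampus replicate 2 being the exception (adjusted p 0.0596 to 0.118), and without that replicate Gabra5 and Gabrd were called too. It was also lost with rescaled libraries (adjusted p = 0.0508) and with the comparison adjusted by itself (adjusted p = 0.0512).

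In 5xFAD mice on control chow the members called between regions included Slc6a11, Npy, Cck, Calb2, Vip and Gabra3, as in wild type. Cortex against thalamus gave 5 called members (18.5%, background 12%): Vip (log2 fold change 1.96, limma adjusted p = 0.00537), Npy (1.30, adjusted p = 0.00171) and Cck (0.91, adjusted p = 0.00024) were higher in cortex, and Slc6a11 (-1.49, adjusted p = 6.42e-05) and Calb2 (-1.86, adjusted p = 0.0126) lower. Hippocampus against thalamus gave 3 (11.1%, background 5.49%), with Cck higher (0.60, adjusted p = 0.0193) and Calb2 (-1.53, adjusted p = 0.0499) and Gabrg1 (-1.11, adjusted p = 0.0224) lower. Gabrg1, a gamma subunit, read 3.76, 5.31, 5.14 and 2.66 RPKM in 5xFAD hippocampus and 11, 5.25, 11.3 and 9.56 in thalamus, and the groups overlapped through the thalamic library with a GC index of -0.64. All 3 calls were lost without 5xFAD hippocampus replicate 4, 1 was left (Calb2) without hippocampus replicate 1 or thalamus replicate 4 and 1 (Cck) without thalamus replicate 3. Calb2 was lost without hippocampus replicate 3 or thalamus replicates 2 or 3 as well, and Gabrg1 without thalamus replicate 1. The Calb2 call was lost under 10 of its 16 alternative settings. Hippocampus against cortex gave Gabra3 alone (3.70%, background 5.36%), at 19.0, 19.5, 13.3 and 36.1 in hippocampus against 37.9, 35.3, 35.4 and 40.9 in cortex (-0.86, adjusted p = 0.0469). The call was lost without any of 7 of the 8 libraries, the exception being hippocampus replicate 4 (adjusted p 0.0686 to 0.207), without which 4 members were called (Slc6a11, Gabra3, Vip and Dlx1). Without 5xFAD cortex replicate 4 the 2 called were Gad1 and Dlx1. Calb2 lost its cortical call without 5xFAD cortex replicate 4 (-1.48, adjusted p = 0.0789) or thalamus replicate 2 (-1.62, adjusted p = 0.0527).

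The 3 genes that define GABAergic neurons, Gad1, Gad2 and Slc32a1, passed the test in none of the 9 comparisons of genotype or diet within a region, nor in the 3 of 5xFAD + PLX5622 against PLX5622. In cortex, Gad1 read 103, 137, 110 and 120 RPKM in Wild-type, 148, 125, 135 and 115 in PLX5622, 174, 134, 112 and 89.2 in 5xFAD and 107, 151, 131 and 106 in 5xFAD + PLX5622. The 4 groups overlapped, and the 5xFAD group held both the highest and the lowest cortical library. In hippocampus it read 95.7, 116, 81.8 and 94.6, then 107, 84.3, 91.7 and 79.3, then 84.9, 86.8, 120 and 111, then 93.5, 89.8, 80.1 and 72.3, in the same order of groups. In thalamus the values were 131, 98.4, 102 and 119 in Wild-type, 120, 110, 125 and 133 in PLX5622, 113, 105, 111 and 135 in 5xFAD and 130, 141, 135 and 137 in 5xFAD + PLX5622. The log2 fold change of Gad1 with PLX5622 in 5xFAD thalamus was 0.23 (95% interval -0.06 to 0.52) and with PLX5622 in 5xFAD hippocampus -0.25 (-0.54 to 0.04).

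**Figure D2:**
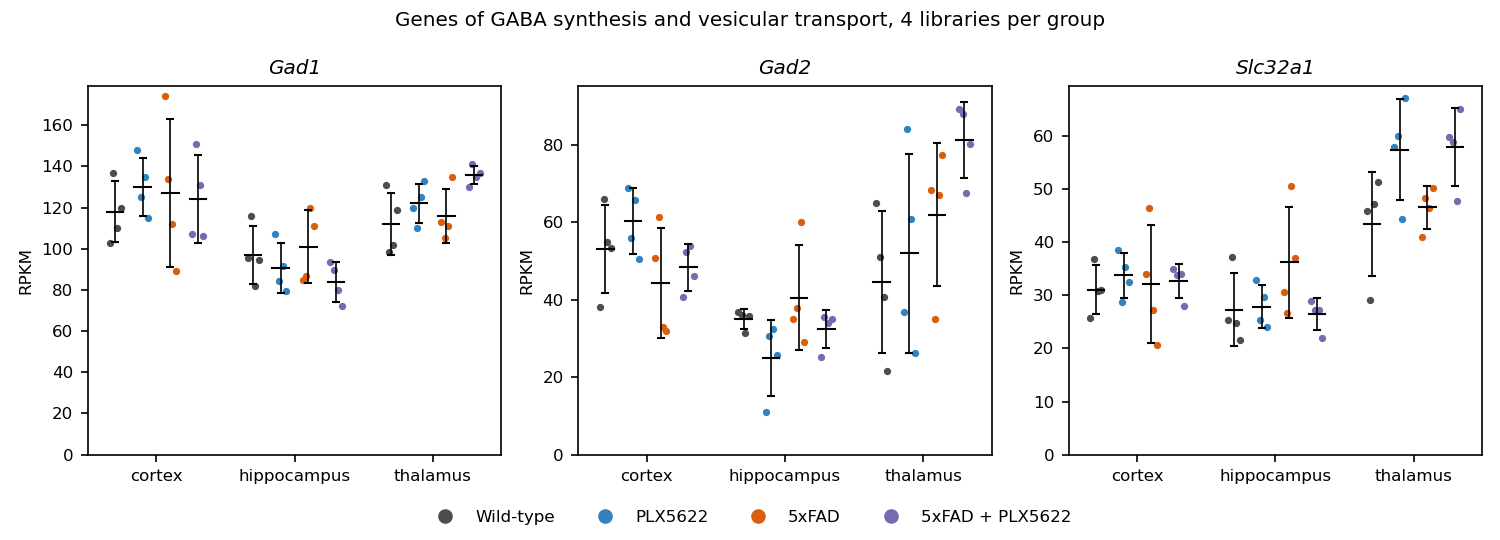
Level of Gad1, Gad2 and Slc32a1 in each of the 48 libraries, as RPKM, by region and group, with the mean and SD of each group of 4. In each comparison of genotype or diet the groups overlap, and Gad2 spreads more widely than Gad1, down to 10.9 RPKM in a PLX5622 hippocampus library.

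Slc32a1 read 25.7, 36.9, 30.8 and 31.1 RPKM in Wild-type cortex, 38.6, 28.7, 35.4 and 32.5 in PLX5622, 34.1, 46.5, 27.3 and 20.6 in 5xFAD and 35.0, 33.8, 34.0 and 28.0 in 5xFAD + PLX5622. In hippocampus the same groups read 25.4, 37.3, 24.8 and 21.6, then 32.8, 25.3, 29.6 and 24.0, then 30.6, 26.6, 50.6 and 37.0, then 28.9, 27.3, 27.2 and 22. The hippocampal library highest in Slc32a1, 5xFAD replicate 3, was also the highest in the 10 genes of striatal projection neurons, at 1215 RPKM. These genes summed to 632 in 5xFAD replicate 4 and to 65.1 to 378 in the other hippocampal libraries. The part of striatal cells in the value was not tested. In thalamus Slc32a1 read 45.9, 29.1, 47.3 and 51.3 in Wild-type, 57.9, 60.1, 44.4 and 67.1 in PLX5622, 41.0, 48.4, 46.5 and 50.3 in 5xFAD and 59.8, 58.8, 47.7 and 65.1 in 5xFAD + PLX5622. Its log2 fold change with PLX5622 there was 0.42 in wild type (95% interval 0.03 to 0.81, limma adjusted p = 0.249) and 0.31 in 5xFAD (-0.08 to 0.70, adjusted p = 0.468).

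Gad2 spread most of the 3, from 10.9 to 89.2 RPKM over the 48 libraries, where Gad1 ran from 72.3 to 174 and Slc32a1 from 20.6 to 67.1. In cortex it read 38.2, 65.9, 54.9 and 53.2 RPKM in Wild-type, 68.8, 56.0, 65.8 and 50.6 in PLX5622, 50.8, 61.3, 33.0 and 31.9 in 5xFAD and 40.7, 52.3, 53.9 and 46.1 in 5xFAD + PLX5622. In hippocampus the groups read 36.9, 36.0, 31.3 and 35.8, then 10.9, 30.6, 32.4 and 25.6, then 35.0, 37.9, 60.1 and 29.0, then 25.3, 35.4, 33.9 and 35.1. In thalamus they read 65.0, 50.9, 40.6 and 21.5, then 36.8, 84.1, 60.7 and 26.2, then 68.4, 35.0, 66.9 and 77.4, then 89.2, 88.0, 67.6 and 80.1. The lowest hippocampal value and the lowest thalamic value of Wild-type, PLX5622 and 5xFAD fell in libraries with a low GC index, and the transcript of Gad2 has 44.1% GC against 48.4% for Gad1. Gad2 was 10.2 to 33.2% of Gad1 (median 19.7%) in the 5 libraries with an index under -0.5 and 26.2 to 76.3% (median 43.7%) in the other 43. The part of base composition in these levels was not tested.

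For 5xFAD against wild type, which asks what amyloid pathology does to these genes while microglia are present, 0 of 27 members were called in cortex, hippocampus or thalamus. The background was 0.732%, 1.96% and 0.413% of all genes. At an unadjusted limma p under 0.05 the members numbered 0, 7 and 0, where 4.26%, 12.3% and 2.87% of all genes were, and voom on the recovered reads also called 0 in each region. The medians of the members' log2 fold changes were -0.04, -0.13 and 0.11, against -0.01 to 0.00 for all genes. By role, the 9 GABA-A subunits had a median of -0.24 in cortex, -0.30 in hippocampus and 0.38 in thalamus, and that of the 4 genes of synthesis and transport -0.01, 0.28 and 0.09. In cortex Gabra3 read 37.9, 35.3, 35.4 and 40.9 RPKM in 5xFAD against 42.3, 42.6, 46.0 and 46.0 in wild type, without overlap, and was not called.

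In hippocampus Gabrb2 read 34.4, 41.8, 28.5 and 24.5 RPKM in 5xFAD against 58.0, 70.8, 44.0 and 64.7 in wild type, without overlap. The log2 fold change was -0.88 (limma adjusted p = 0.16). The GC index was 0.254 to 0.315 in the wild-type and -0.333 to 0.101 in the 5xFAD hippocampal libraries, so it moved with the genotype. With it as a covariate the difference was -0.44 and was called (adjusted p = 0.0339). None of the 5 libraries of low index is in these 2 groups, so leaving them out could not change the difference of -0.88. It was called there (adjusted p = 0.00189) through a smaller variance over the remaining libraries (SE 0.179), which is no check on base composition. Gabbr1, the GABA-B subunit that binds GABA, read 175, 174, 165 and 178 against 160, 164, 139 and 162, also without overlap (0.15, adjusted p = 0.284). Cck read 185, 161, 93.8 and 201 in 5xFAD against 216, 230, 196 and 188 in wild type, and Sst 112, 106, 85.4 and 150 against 143, 175, 137 and 173, with overlap in both. Without 5xFAD hippocampus replicate 4, the hippocampal library lowest in the mean log2 level of 8 dentate gyrus genes, Cck was called lower (-0.56, adjusted p = 0.041). The sum of those genes was 28.8 RPKM in that library and lower, 24.5, in Wild-type replicate 2, without which 0 members were called.

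**Figure D3:**
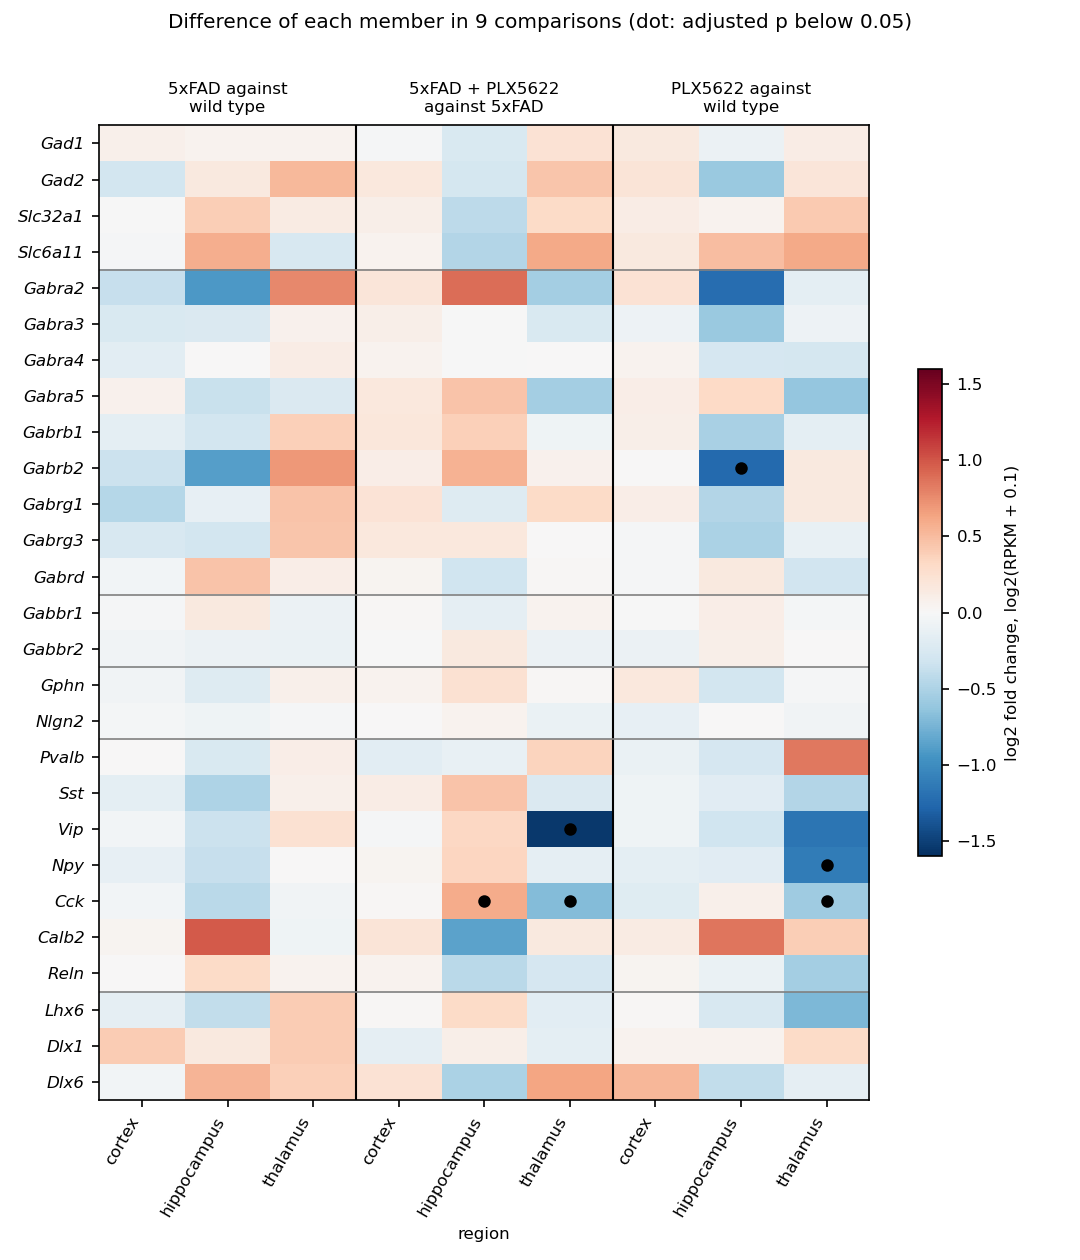
Log2 fold change of each of the 27 genes, from log2(RPKM + 0.1), in 9 comparisons of genotype or diet within a region, as colour, with a dot where the limma adjusted p passed 0.05. Dots stand at 6 places, for Cck, Vip, Gabrb2 and Npy, and the cortex columns hold none.

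With PLX5622 in 5xFAD mice, which asks whether losing microglia moved these genes in the diseased brain, Cck changed in opposite directions in hippocampus and thalamus. In hippocampus 1 of 27 members was called, higher (3.70%, background 2.96%), and in thalamus 2 were called, both lower (7.41%, background 2.76%). In cortex 0 were called (background 2.13%), with 0 at an unadjusted limma p under 0.05 and 0 by voom, and the 27 log2 fold changes lay between -0.17 and 0.23. The members' medians were 0.05 in cortex, 0.05 in hippocampus and 0.00 in thalamus, against 0.01 to 0.02 for all genes.

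Cck encodes cholecystokinin. In hippocampus it read 314, 221, 202 and 209 RPKM in 5xFAD + PLX5622 against 185, 161, 93.8 and 201 in 5xFAD, and in thalamus 52.6, 59.3, 73.9 and 67.7 against 106, 118, 104 and 81.8. The treated libraries were all above the untreated in hippocampus, by 202 against 201 at the closest, and all below them in thalamus. The log2 fold change was 0.59 in hippocampus (SE 0.161, limma adjusted p = 0.02) and -0.69 in thalamus (SE 0.161, adjusted p = 0.00542), each with an exact two-sided permutation p of 0.0286, the smallest that 4 against 4 libraries allow. The difference between the regions was itself called, at 1.29 (SE 0.227, 95% interval 0.83 to 1.75, adjusted p = 0.0045 within that contrast). Cck was the 1 member called there, against a background of 0.676%, and the call held under each alternative and with each of the 16 libraries left out (1.05 to 1.47). The thalamic call held under each alternative and with each library left out, from -0.80 to -0.61. The hippocampal call was lost without 5xFAD replicate 3 (0.36, adjusted p = 0.175), without 5xFAD + PLX5622 replicate 1 (0.45, adjusted p = 0.109) and without the hippocampal libraries with striatal Drd2 over 10 RPKM, which here are 5xFAD replicates 3 and 4 and 5xFAD + PLX5622 replicate 3 (0.50, adjusted p = 0.0681). It was also lost with rescaled libraries (adjusted p = 0.057) and with hippocampus fitted alone (adjusted p = 0.309).

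**Figure D4:**
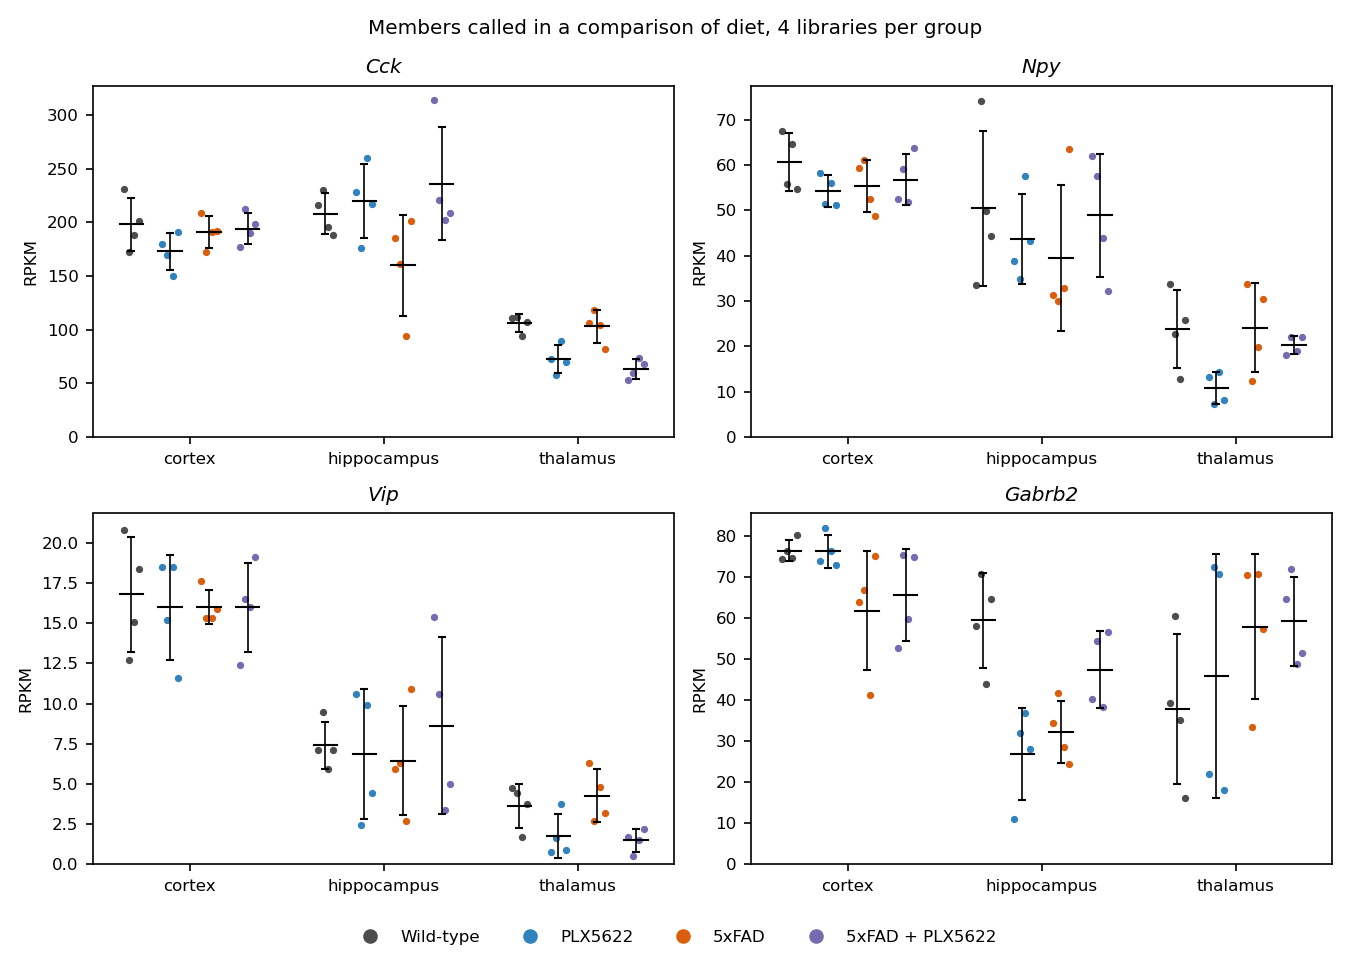
Level of the members called with diet in hippocampus or thalamus in each library, as RPKM, by group, with the mean and SD of each group of 4. Cck with PLX5622 is higher in 5xFAD hippocampus (236 against 160 RPKM) and lower in 5xFAD thalamus (63.4 against 103).

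Since Cck is made by excitatory neurons too, 6 genes of excitatory neurons were summed. They read 1719 to 2231 RPKM in 5xFAD + PLX5622 hippocampus against 1228 to 1675 in 5xFAD, and 370 to 557 in 5xFAD + PLX5622 thalamus against 599 to 921 in 5xFAD, without overlap in either region. Slc17a7, the vesicular glutamate transporter of cortical and hippocampal neurons and 1 of the 6, read 58.9, 36.4, 70.3 and 78.4 in 5xFAD + PLX5622 thalamus and 200, 118, 135 and 132 in 5xFAD. These values moved with Cck in both regions, and their part in its change was not tested. Liver transcripts were seen in 5xFAD + PLX5622 hippocampus replicates 3 and 4, where Alb read 634 and 112, and without those libraries the Cck call held.

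**Figure D5:**
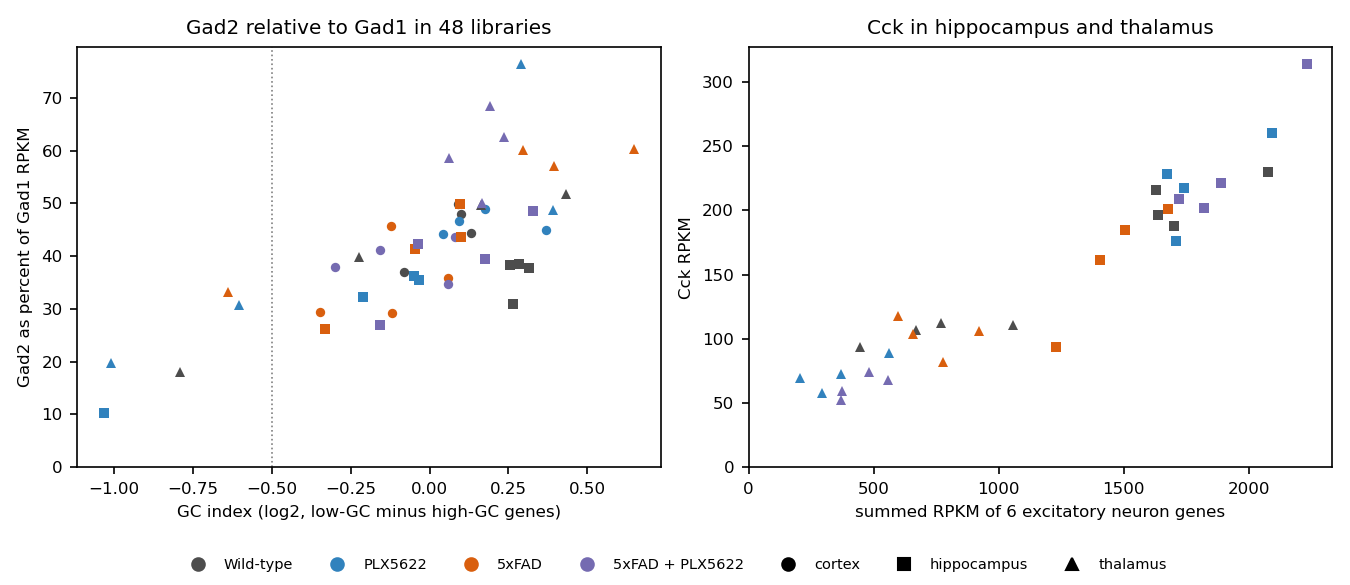
Left, Gad2 as a percent of Gad1 in each of the 48 libraries against the GC index (log2); right, Cck RPKM against the summed RPKM of 6 excitatory neuron genes in the hippocampal and thalamic libraries. The 5 libraries with an index under -0.5 lie at 10.2 to 33.2%, and the excitatory sums are 204 to 1056 RPKM in thalamus and 1228 to 2231 in hippocampus.

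Vip was the other member called in 5xFAD thalamus. It read 1.68, 0.508, 1.54 and 2.23 RPKM with PLX5622 against 6.33, 2.71, 4.82 and 3.18 without, which rests on 9 to 55 and 48 to 86 reads a library. The groups did not overlap (log2 fold change -1.54, SE 0.454, limma adjusted p = 0.0375, exact permutation p = 0.0286). The call was lost without 5xFAD thalamus replicate 1 (-1.32) or 3 (-1.45), without 5xFAD + PLX5622 thalamus replicate 2 (-1.13) or 3 (-1.6), and with voom on the recovered reads (-1.49, adjusted p = 0.204). It was lost as well with a pseudocount of 1 (-1.08), with the comparison adjusted by itself (adjusted p = 0.066) and with thalamus fitted alone (adjusted p = 0.261). In cortex, where Vip is higher, the means were 16 in both groups (-0.02, 95% interval -0.93 to 0.90).

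With PLX5622 in wild-type mice, Cck and Npy were lower in thalamus and Gabrb2 in hippocampus. In thalamus 2 of 27 members were called, both lower (7.41%, background 3.84%), in hippocampus 1, lower (3.70%, background 2.77%), and in cortex 0 (background 1.38%), with 0 in cortex at an unadjusted limma p under 0.05 and 0 by voom. At an unadjusted p under 0.05 there were 10 members in thalamus and 5 in hippocampus, where 15% and 16.7% of all genes were. The members' medians were 0.04 in cortex, -0.18 in hippocampus and -0.08 in thalamus, against 0.00 to 0.01 for all genes. The thalamic count was 5 without Wild-type thalamus replicate 3, with Pvalb called higher (log2 fold change 0.97) and Sst (-0.73) and Lhx6 (-0.99) lower. It was 4 without PLX5622 thalamus replicate 3, with Vip (-1.61) and Reln (-0.71) called lower. In cortex Gphn, the scaffold gephyrin, read 28.2, 30.6, 28.7 and 29.4 RPKM with PLX5622 against 24.6, 25.4, 26.0 and 27.5 without, and was not called.

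Cck read 72.5, 57.6, 89.3 and 69.7 RPKM in PLX5622 thalamus against 111, 112, 93.9 and 107 in wild type, without overlap (log2 fold change -0.57, SE 0.161, limma adjusted p = 0.0287, exact permutation p = 0.0286). It was lost without wild-type thalamus replicates 1, 2 or 4 or PLX5622 thalamus replicates 2 or 4, at -0.46 to -0.56 (adjusted p 0.055 to 0.118), with rescaled libraries (adjusted p = 0.063), with thalamus fitted alone (adjusted p = 0.0786) and without the libraries of low GC index (-0.55, adjusted p = 0.14). The comparison in 5xFAD thalamus shares no library with this one. Npy, the neuropeptide of many Sst interneurons and of neurogliaform cells, read 13.2, 7.23, 14.3 and 8.13 in PLX5622 against 33.8, 22.8, 12.7 and 25.8 in wild type. Wild-type replicate 3 lay within the treated range, and the log2 fold change was -1.12 (SE 0.269, adjusted p = 0.00753, exact permutation p = 0.0857). The Npy call held with every library left out, and was lost with voom (-1.05, adjusted p = 0.0765) and with the thalamus fitted alone (adjusted p = 0.179). In 5xFAD thalamus Npy read 18.1, 22.1, 19.0 and 22.1 with PLX5622 against 33.7, 12.3, 19.9 and 30.4 without, and was not called.

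In PLX5622 thalamus the 6 excitatory neuron genes summed to 204 to 562 RPKM against 446 to 1056 in wild type, and Slc17a7 read 76.7, 49.5, 110 and 32.4 against 222, 164, 87.5 and 139. The 10 genes of striatal projection neurons, which are GABAergic themselves, summed to 135, 108, 87.7 and 101 RPKM against 700, 131, 217 and 253, and the groups overlapped. The part of either kind of neuron in the values of Cck, Npy and Pvalb was not tested. Pvalb, the calcium-binding protein of fast-spiking interneurons and of reticular thalamic cells, was on the other side, at 70.3, 59.7, 83.5 and 76.5 in PLX5622 thalamus against 24.1, 40.1, 52.9 and 50.9 in wild type. Its groups did not overlap, and it missed the threshold (adjusted p = 0.0578). It was called with voom (log2 fold change 0.83, adjusted p = 0.0404) and with the GC index as a covariate (0.79, adjusted p = 0.0381).

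Gabrb2 in hippocampus read 11.1, 32.1, 36.8 and 28.2 RPKM in PLX5622 against 58.0, 70.8, 44.0 and 64.7 in wild type, without overlap (log2 fold change -1.24, SE 0.351, limma adjusted p = 0.0277, exact permutation p = 0.0286). The transcript has 44.0% GC, and the lowest value was in the library with a GC index of -1.033. The index was 0.254 to 0.315 in the 4 wild-type and -1.033 to -0.033 in the 4 PLX5622 hippocampal libraries, so it moved with the diet. With it as a covariate the difference was -0.41 (adjusted p = 0.0703), without PLX5622 replicate 1 it was -0.86 (adjusted p = 0.169), and the call was also lost without wild-type replicates 1, 2 or 4 (-1.15 to -1.25). Without the libraries with Drd2 over 10 RPKM, replicate 2 of both groups, it was -1.28 (adjusted p = 0.0688), with the comparison adjusted by itself the adjusted p was 0.0546, and with hippocampus fitted alone 0.075.

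Between 5xFAD + PLX5622 and PLX5622, 0 of 27 members were called in any region, with backgrounds of 0.0626% in cortex, 0.808% in hippocampus and 0.0376% in thalamus. At an unadjusted limma p under 0.05 there were 0, 4 and 6 members in cortex, hippocampus and thalamus, where 5.66%, 10.7% and 11.7% of all genes were, and voom called 0 members in each. Gabrb2 in hippocampus, 40.2, 54.4, 38.4 and 56.6 RPKM in 5xFAD + PLX5622 against 11.1, 32.1, 36.8 and 28.2 in PLX5622, did not overlap there. Neither did Npy in thalamus (18.1, 22.1, 19.0 and 22.1 against 13.2, 7.23, 14.3 and 8.13), Dlx6 in thalamus (7.11, 8.37, 3.71 and 7.38 against 2.58, 3.23, 2.46 and 3.08) or Gabra4 in cortex (30, 37.4, 36.2 and 36.7 against 39.3, 41.8, 37.7 and 38.3). None of these 4 was called, and the share of all genes without overlap is not given, so they are not read as differences.

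Differences between effects were tested as interaction terms, each adjusted by itself. The PLX5622 effect in hippocampus differed between genotypes for 0 members (background 0.332%), with 9 at an unadjusted limma p under 0.05, where 14.9% of all genes were, and a lowest adjusted p of 0.0772. It differed for 0 members in cortex and thalamus too (backgrounds 0% and 0.00626%), with 0 and 1 at an unadjusted p under 0.05 (2.54% and 2.73% of all genes). So the calls of Npy in wild-type but not 5xFAD thalamus, and of Gabrb2 in wild-type but not 5xFAD hippocampus, are not shown to differ between genotypes. The 5xFAD effect differed between hippocampus and cortex, and between hippocampus and thalamus, for 0 members (both backgrounds 0%), with 0 and 4 at an unadjusted p under 0.05 (3.72% and 8.39% of all genes). The PLX5622 effect in 5xFAD differed between hippocampus and cortex for 0 members (background 0%), with 1 at an unadjusted p under 0.05 (4.95% of all genes). By voom each of these 6 counts was 0 as well. Gabrb2 was called for the genotype difference of the PLX5622 effect in hippocampus with the GC index as a covariate, with hippocampus fitted alone and without PLX5622 hippocampus replicate 3, and without the 5 libraries of low index it was called with Gabra2. Without those 5 libraries, 3 members (Gabra2, Gabrb2 and Gabbr1) were called for the 5xFAD effect of hippocampus against thalamus.

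Other members that passed in no comparison of genotype or diet are given by their range over the 48 libraries and over the 9 log2 fold changes within a region. Among the GABA-A subunits, Gabra2 read 2.86 to 29.3 RPKM and its log2 fold changes ran from -1.22 to 0.89, Gabra5, an extrasynaptic alpha subunit of hippocampus, read 9.03 to 57.7 (-0.62 to 0.46), and Gabra4, which pairs with Gabrd in tonic receptors, read 13.4 to 43.7 (-0.28 to 0.12). Gabrd read 10 to 30.3 (-0.32 to 0.45), Gabrb1 13.6 to 44.0 (-0.52 to 0.38) and Gabrg3 3.37 to 13.8 (-0.51 to 0.44). The 2 ends of the fold changes of Gabra2, whose transcript has 38.4% GC, were both in hippocampus, with PLX5622 in wild type (-1.22) and in 5xFAD (0.89). The GABA-B subunits stayed within narrow ranges: Gabbr1 read 139 to 216 (-0.15 to 0.15) and Gabbr2, the subunit that couples to the G protein, 47.5 to 88.8 (-0.11 to 0.15). Nlgn2, the adhesion protein of inhibitory synapses, was at 53.7 to 76.9 (-0.13 to 0.05), and Gphn read 14.8 to 30.6 (-0.30 to 0.24). Of the interneuron genes, Sst read 47.9 to 184 (-0.49 to 0.45), Calb2 3.54 to 98.6 (-0.86 to 0.98), and Reln, the secreted matrix protein reelin, 8.16 to 25.2 (-0.54 to 0.31). The transcription factors read 1.47 to 6.94 for Lhx6, 2.40 to 19.4 for Dlx1 and 1.29 to 10.4 for Dlx6, the last resting on 13 to 144 reads. Slc6a11 read 28.7 to 252, with log2 fold changes of -0.47 to 0.61, the former with PLX5622 in 5xFAD hippocampus and the latter with PLX5622 in 5xFAD thalamus.

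The wider GABA system was read from 81 other tested genes, 7 receptor subunits, 12 of transport and metabolism, 24 of the inhibitory postsynapse and 38 of interneurons. For 5xFAD against wild type, 0 were called in cortex, 2 higher and 3 lower in hippocampus and 1 higher in thalamus. The background in these regions was 0.732%, 1.96% and 0.413% of all genes. In hippocampus Abat, which breaks GABA down, was higher at 71.9 RPKM against 57.0 (log2 fold change 0.33, limma adjusted p = 0.0455). With PLX5622 in 5xFAD hippocampus it was called in the other direction (-0.34, adjusted p = 0.0386), in a comparison that shares the 5xFAD libraries. Others called in 5xFAD hippocampus were the substance P receptor Tacr1 (1.54) and the somatostatin receptor Sstr2 (-1.10).

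With PLX5622 in 5xFAD, 1 of the 81 was called lower in cortex, 1 higher and 3 lower in hippocampus and 4 lower in thalamus. The background there was 2.13%, 2.96% and 2.76% of all genes. The thalamic genes included the interneuron genes Htr3a (log2 fold change -0.95), Crhbp (-1.08) and Cort (-2.20). Htr3a encodes a serotonin receptor found on Vip interneurons and Cort a peptide of some Sst interneurons, and they were called lower in the same comparison as Vip and Cck. In wild-type mice PLX5622 gave 0 calls in cortex, 1 lower in hippocampus, and 4 higher and 5 lower in thalamus. The background was 1.38%, 2.77% and 3.84% of all genes. The thalamic genes higher included Aldh5a1 (0.21) and Aldh9a1 (0.35), enzymes of GABA metabolism, and the serotonin transporter gene Slc6a4 (3.09). Slc6a4 was low and widely spread, at 3.55 ± 2.1 RPKM (mean ± SD) with PLX5622 against 0.419 ± 0.46 without. The thalamic genes lower included Kctd16 (-0.64), an auxiliary subunit of GABA-B receptors, Shisa7 (-0.51), an auxiliary subunit of GABA-A receptors, and the VIP receptor gene Vipr1 (-1.65).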

How the data were processed

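RNA from 48 libraries was measured, 4 for each of 4 groups in 3 regions. The authors' pipeline, per the labels and the study's methods, was STAR alignment of single-end 50 bp reads on mm10, featureCounts per gene and normalization factors from edgeR, and the deposited values are RPKM. The labels and the methods name different library kits. Dates in place of 24 gene symbols were renamed from their Entrez numbers. Each column was given to a sample by an exact match of its title.

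The deposited RPKM entered as log2(RPKM + 0.1), which understates changes of low genes. One model with a mean for each of the 12 groups was fitted over the 48 libraries to 15975 of 16014 genes (4 libraries or more with an RPKM of 0.2 or above) with limma 3.58.1 in R 4.3.3, using eBayes with a trend. Benjamini-Hochberg adjustment at 0.05 was joint for the study's 15 comparisons and separate for each of the other 10. Single called genes were also given an exact two-sided permutation test. The members and lists were chosen with earlier results of these data known. Every member is named. Values per library are given for called members (at most 6 per comparison and direction, where either group averages 1 RPKM or more) and for Gad1, Gad2 and Slc32a1, other members are given by ranges, and up to 4 called genes of each other list are named by smallest p. Values per library of members not called, and of marker genes, were chosen after they were seen. The share of all genes whose groups do not overlap is not given, so a lack of overlap alone is not a result about a member. Some genes that this rule names are left out of the text.

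Low RPKM values step in whole reads, and 16014 of 16014 genes (100%) gave whole reads in every library within 0.01 reads. Voom of limma on these reads was an alternative. Others were pseudocounts of 0.01 and 1, other filters, rescaling, eBayes settings, each region alone, blocks on replicate number or animal, and leaving out libraries. Alternatives added after seeing the data were the GC index as a covariate, and leaving out libraries with an index under -0.5 or hippocampal libraries with Drd2 over 10 RPKM. Transcripts for the index were found for 15253 of the tested genes (95.5%). Replicate numbers were not taken to pair libraries in the main fit. Libraries of the same number in 2 arms of a region had a median correlation of deviations of 0.02 (-0.52 to 0.67, 72 pairs), and those of the same arm in 2 regions 0.01 (-0.28 to 0.37, 48 pairs). These deviations also hold other differences between libraries, so the check cannot exclude shared animals. Blood genes summed to over 100 RPKM in PLX5622 replicate 3 and 5xFAD + PLX5622 replicate 4 in all 3 regions, and to at most 64.7 in the others. Depth was 6.19 M to 16.02 M reads, and Vip, at 9 to 362 reads a library, is among the least precisely measured. Promoters came from RefSeq (GRCm38.p6). Scripts were tested on simulated data. Summaries used pandas 2.3.3, numpy 2.4.6 and scipy 1.17.1 under Python 3.11.15, and figures matplotlib 3.10.9.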

Additional observations from a re-analysis of the deposited data

Results flagged for a closer look

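Among 324 sets of 4 libraries (27 genes in 12 groups), 18 (5.56%) held a library far from the other 3 of its group, by a gap that chance gives in about 1 of 20. The receptor genes gave 9 of them. In cortex, Gabra4 was low in 5xFAD + PLX5622 replicate 1 (30 RPKM) and Gabra5 high in 5xFAD + PLX5622 replicate 2 (32.9 RPKM). In hippocampus, Gabbr1 was low in Wild-type replicate 3 (139 RPKM), and Gabbr2 low in 5xFAD replicate 3 (47.5 RPKM) and high in 5xFAD + PLX5622 replicate 1 (88.8 RPKM). In thalamus, Gabra4 was low in Wild-type replicate 4 (20.5 RPKM), which has a GC index of -0.792, Gabrd was low in Wild-type replicate 2 (12.2 RPKM) and high in 5xFAD + PLX5622 replicate 2 (27.6 RPKM), and Gabbr1 was high in that same library (195 RPKM).

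Of the genes of synthesis and transport, Gad2 was low in 5xFAD + PLX5622 hippocampus replicate 1 (25.3 RPKM) and Slc6a11 in replicate 2 (32.8 RPKM). Of the peptides, Cck was high in 5xFAD + PLX5622 hippocampus replicate 1 (314 RPKM), 1 of the libraries on which its hippocampal call rests, Npy was high in 5xFAD hippocampus replicate 4 (63.5 RPKM) and Sst low in 5xFAD thalamus replicate 2 (80.4 RPKM), which has a GC index of -0.64. Calb2 was high in PLX5622 cortex replicate 1 (21.5 RPKM) and PLX5622 thalamus replicate 4 (98.6 RPKM), the latter with a GC index of -1.01. In Wild-type thalamus Dlx1 was low in replicate 3 (2.40 RPKM) and Dlx6 high in replicate 1 (7.42 RPKM).

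The PLX5622 effect on Cck in 5xFAD mice differed between hippocampus and thalamus by 1.29 on the log2 scale, tested as an interaction term and given in the report with the levels of excitatory neuron genes.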

How the results depend on the processing

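Of 28 calls of members over all comparisons, 14 held under every alternative and with every library left out, 14 were lost under at least 1, and 0 turned direction. Over 17 settings, 331 counts of members called stayed within 1.5 times and 48 moved. With a pseudocount of 1, the count for PLX5622 in 5xFAD thalamus went from 2 to 1 and for hippocampus against cortex in 5xFAD from 1 to 3. With libraries rescaled to 1 median, PLX5622 in 5xFAD hippocampus and hippocampus against cortex in both genotypes went from 1 to 0, and PLX5622 in wild-type thalamus from 2 to 1. Without a trend in eBayes, hippocampus against cortex in 5xFAD went to 0. With each comparison adjusted by itself, PLX5622 in 5xFAD thalamus gave 1, PLX5622 in wild-type hippocampus 0, hippocampus against cortex 0 in wild type and 3 in 5xFAD, and cortex against thalamus in wild type 10 in place of 6. With the replicate number as a block, hippocampus against cortex in 5xFAD gave 0, the 1 count this pairing moved, and with the animal as a block (libraries of the same arm and number over regions, consensus correlation 0.026) it gave 3. Blood transcripts over 100 RPKM in the same arm and number in all 3 regions (6 libraries) are a hint of shared animals. Voom gave 1 for PLX5622 in 5xFAD thalamus, and 2 in wild type and 3 in 5xFAD for hippocampus against cortex.

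With each region fitted alone, the counts were 0 for PLX5622 in 5xFAD hippocampus, wild-type hippocampus and wild-type thalamus, 1 for PLX5622 in 5xFAD thalamus and 1 for the genotype difference of the PLX5622 effect in hippocampus. Without the hippocampal libraries with liver transcripts, hippocampus against cortex in 5xFAD gave 2 and the hippocampus minus thalamus difference of the PLX5622 effect in 5xFAD 2 in place of 1. Without the hippocampal library lowest in the mean log2 level of dentate gyrus genes, 5xFAD against wild type in hippocampus gave 1, and 5xFAD hippocampus gave 4 against cortex and 0 against thalamus. Without hippocampal libraries with Drd2 over 10 RPKM, PLX5622 in hippocampus gave 0 in both genotypes, and hippocampus against cortex 3 in wild type and 2 in 5xFAD. With the GC index as a covariate, hippocampus against cortex gave 7 in wild type and 8 in 5xFAD, cortex against thalamus 10 in both, hippocampus against thalamus in 5xFAD 6, 5xFAD against wild type in hippocampus 1, PLX5622 in wild-type hippocampus 0, the region difference of the PLX5622 effect 2 and its genotype difference in hippocampus 1. Without the 5 libraries of low index, 5xFAD against wild type in hippocampus gave 1, PLX5622 in wild-type thalamus 1, hippocampus against cortex 2 in wild type and 4 in 5xFAD, hippocampus against thalamus in 5xFAD 5, the 5xFAD effect of hippocampus minus thalamus 3, the region difference of the PLX5622 effect 3 and its genotype difference in hippocampus 2. None of the 5 is from cortex or from Wild-type or 5xFAD hippocampus. Fold changes between those groups stayed the same without the 5, and only the estimate of variance moved. The cause of the shifts in these counts was not tested.

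With each library left out in turn, the counts ran from 0 to 1 for 5xFAD against wild type, PLX5622 in 5xFAD and PLX5622 in wild type in hippocampus and for the genotype difference of the PLX5622 effect there, from 1 to 3 for PLX5622 in 5xFAD thalamus and from 1 to 5 for PLX5622 in wild-type thalamus. In wild type they ran from 0 to 3 for hippocampus against cortex, 3 to 6 for hippocampus against thalamus and 5 to 10 for cortex against thalamus, and in 5xFAD from 0 to 4, 0 to 4 and 4 to 6. Depth limits Vip and Dlx6 most, at as few as 9 and 13 reads in a library.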
